A study of Danio rerio with 5 samples.

Results

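The genes described here are 10 named genes of the complement pathway of the zebrafish, Danio rerio: cfh, cfb, c5, c6, c7a, c8a, c8b, c8g, c9 and mbl2. All non-control array probes of these genes were taken, with the gene symbol read from the RefSeq accession that each probe carries. At least 1 probe was found for 6 of the 10 genes, making 10 probes of the 43603 non-control probes on the array. The accessions matched no probe to c5, c7a, c8b or c9, and these 4 genes were not analysed here. Of the 10 probes, 8 were bright enough to be tested, and they represent 5 genes of the 10791 genes tested. The members were named by a list, and that list was chosen with earlier results of these data known. Their counts and medians are therefore given as description.

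Each embryo received 1 nl of morpholino solution at the 1-cell stage, RNA was taken from whole embryos 14 h after fertilization, and the labels name no strain. A morpholino is a short synthetic oligonucleotide that pairs with a chosen RNA and blocks its translation or its splicing. The control MO group (3 arrays) was given control morpholino at 7.5 ng per embryo, and the gata5/6 MO group (2 arrays) was given 6.25 ng of gata5 morpholino with 1.25 ng of gata6 morpholino. The labels report that this pair of morpholinos also lowers gata4, so the comparison asked how RNA levels change when 3 GATA factors are reduced. All embryos of both groups carried a morpholino, the total dose was the same, and the labels do not say how many embryos made up a sample or whether the samples came from separate clutches. A p-value here therefore reflects only how far these samples spread, and that spread may be technical.

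Complement is a set of plasma proteins that marks microbes and damaged cells and can pierce their membranes. It is started by antibody-bound C1q, by lectins such as mannose-binding lectin that recognise sugars, or by spontaneous turnover of C3 in the alternative pathway. All routes cleave C3 and then C5, after which C5b, C6, C7, C8 and C9 assemble into the membrane attack complex, while factor H and other regulators protect host surfaces. In adult vertebrates the liver makes most of these proteins, and macrophages make C1q.

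The signal of each spot was divided by the 75th percentile of its array, which gives a relative signal, and its log2 is called the log2 signal. Groups were compared with limma over all genes, with 0.05 as the limit of the Benjamini-Hochberg adjusted p. Directions are those of gata5/6 MO against control MO, and rose and fell are kept for genes that passed. Over all genes tested, 1620 passed, or 15.0%, with 846 higher (7.84%) and 774 lower (7.17%), and the median log2 change was 0.04. The count depended on single arrays, with 772, 764 and 685 genes passing without control MO replicate 1, 2 or 3, and 2034 and 5262 without gata5/6 MO replicate 1 or 2. Slide 1, read in scan 1, held the control arrays and slide 2, read in scan 2, the gata5/6 arrays, so slide, scan and group cannot be told apart. The median SD of a gene on the log2 scale was 0.170 between the gata5/6 arrays and 0.0654 between the control arrays. Of the targeted genes, gata4 fell (log2 change -0.64, limma adjusted p = 0.00519) while the RNA of gata5 and gata6 rose (1.98 and 2.85), and a morpholino need not lower the RNA of its target.

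Of the 5 complement genes tested, 3 rose, 1 fell and 1 did not pass, beside 7.84% higher and 7.17% lower over all genes tested. The gene of factor H, cfh, was 4.83-fold higher after gata5/6 MO, that of the C8 alpha chain, c8a, 2.26-fold and that of factor B, cfb, 1.89-fold. The mannose-binding lectin gene mbl2 was 1.68-fold lower, a call that depended on the processing, and c6, 1.31-fold lower, did not pass. The median log2 change of the 5 genes was 0.92, beside 0.04 over all genes tested. Both gata5/6 arrays lay on one side of all 3 control arrays for each of the 5 genes, which was also so for 50.8% of all genes tested. They lay above the controls for cfh, c8a and cfb, as for 29.0% of all genes, and below them for mbl2 and c6, as for 21.8%. Of the 8 member probes kept, 4 rose and 1 fell in a fit over all 30616 kept probes, in which 11.7% passed (6.09% higher and 5.63% lower). All 8 had both gata5/6 arrays beyond the controls, 4 above and 4 below, beside 47.5% of all kept probes, 25.3% above and 22.2% below. In whole embryos a change in the number of producing cells and a change in RNA per cell cannot be told apart.

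**Figure D1:**
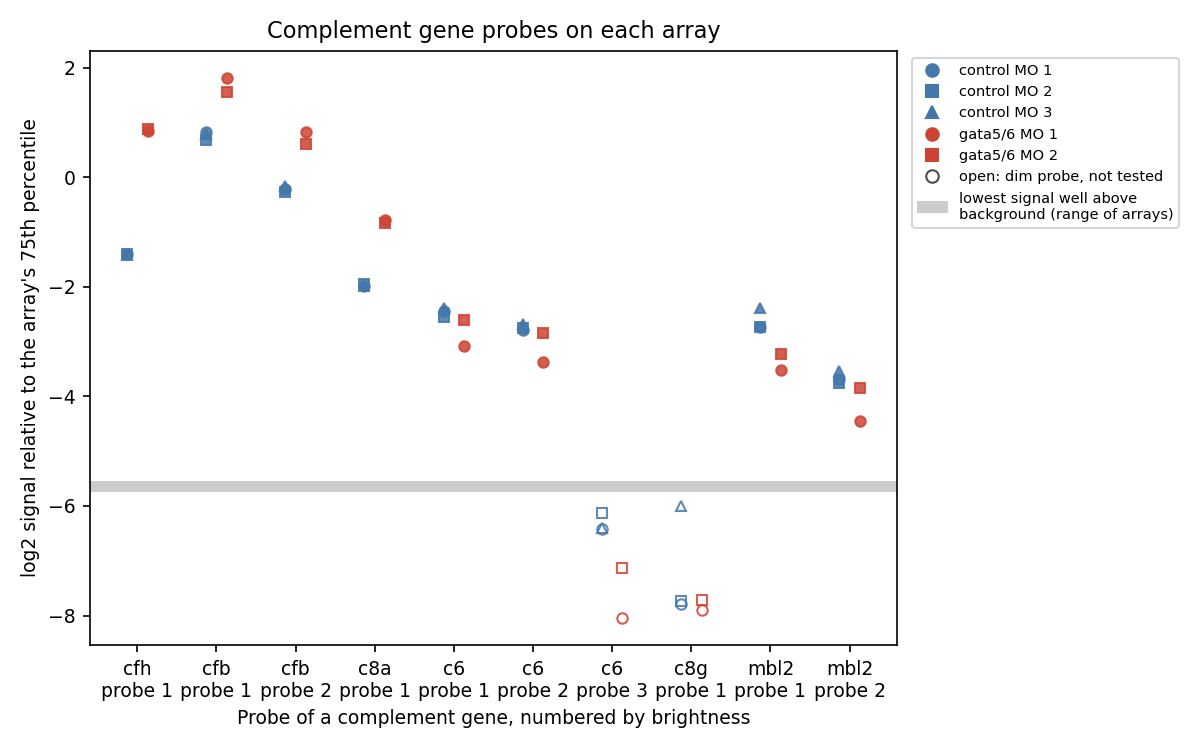
Log2 signal of every probe of the 6 complement genes with a probe, on each of the 3 control MO arrays (blue) and 2 gata5/6 MO arrays (red). Each symbol is 1 array, open symbols are dim probes that were not tested, and the grey band spans the lowest signal called well above background on the 5 arrays. For cfh, c8a and cfb the red symbols lie clear above the blue ones, for mbl2 and c6 they lie below, and the c8g probe and the third c6 probe are under the band.

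Factor H is the main plasma regulator of the alternative pathway. It binds C3b on host surfaces, speeds the decay of the C3 convertase and helps factor I to cut C3b. The single cfh probe had relative signals of 0.378, 0.379 and 0.373 in control MO replicates 1 to 3 and of 1.79 and 1.85 in gata5/6 MO replicates 1 and 2. The gata5/6 arrays were both far above the controls, and the arrays of each group nearly coincided. The mean log2 signal was -1.41 ± 0.014 (SD, n = 3) in controls and 0.86 ± 0.032 (SD, n = 2) after gata5/6 MO. The log2 change was 2.27 (limma, SE 0.0792, 95% interval 2.08 to 2.47, adjusted p = 8.14e-05). It ranked 80 from the highest of the 10791 genes tested. The cfh gene has near relatives, the cfhl genes, so how far its probe reads cfh alone is uncertain.

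Factor B carries the protease of the alternative pathway C3 convertase, which factor H takes apart. The brighter of its 2 probes had relative signals of 1.77, 1.61 and 1.73 in control MO replicates 1 to 3 and of 3.52 and 2.95 in gata5/6 MO replicates 1 and 2. All control values were under both gata5/6 values, and the gap between the groups, 0.74 on the log2 scale, was wider than the 0.25 between the gata5/6 arrays. The log2 change was 0.92 (limma, SE 0.110, 95% interval 0.65 to 1.19, adjusted p = 0.00415). The dimmer probe read 0.866, 0.829 and 0.897 in control MO and 1.78 and 1.51 after gata5/6 MO. Its log2 change, 0.93, differed from that of the brighter probe by less than the SE. In the fit over probes both cfb probes passed (limma adjusted p = 0.00685 for the brighter and 0.00585 for the dimmer).

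In the membrane attack complex, the C8 alpha chain is the part of C8 that inserts into the membrane, bound to the C8 gamma chain and paired with C8 beta. The c8a probe had relative signals of 0.253, 0.258 and 0.252 in control MO replicates 1 to 3 and of 0.585 and 0.563 in gata5/6 MO replicates 1 and 2. As for cfh, the arrays of a group lay close together, with a control range of 0.03 and a gata5/6 difference of 0.05 on the log2 scale against a gap of 1.13 between the groups. The log2 change was 1.17 (limma, SE 0.0797, 95% interval 0.98 to 1.37, adjusted p = 0.000597), and it ranked 251 from the highest. The c8g probe, for the gamma chain, a member of the lipocalin family, was not well above background on any of the 5 arrays and was not tested. Its relative signal was 0.0155 in control MO replicate 3 and between 0.00421 and 0.00475 on the other arrays, all under the level of detection. No statement on the direction of c8g can be made from these arrays.

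C6 joins C5b and starts the assembly of the membrane attack complex. The gene was listed under its older symbol and is named c6.2 in the RefSeq table, which also holds a related gene, c6.1, so the probes may not tell the copies apart. The brightest c6 probe had relative signals of 0.184, 0.171 and 0.191 in control MO replicates 1 to 3 and of 0.118 and 0.164 in gata5/6 MO replicates 1 and 2. Both gata5/6 values were lower, but replicate 2 lay only 0.06 below the lowest control on the log2 scale, while the gata5/6 arrays differed by 0.48. The log2 change was -0.39 (limma, SE 0.155, 95% interval -0.77 to -0.0048, unadjusted p = 0.0480, adjusted p = 0.153). The second probe gave -0.37 (adjusted p = 0.218 over probes), and its relative signals were 0.146, 0.149 and 0.157 in control MO and 0.0972 and 0.140 after gata5/6 MO. The third c6 probe was dim on all 5 arrays. The c6 value rested on which gata5/6 array was used, with a log2 change of -0.15 without replicate 1 and of -0.62 without replicate 2.

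Mannose-binding lectin binds sugars of microbes and, through its MASP proteases, starts the lectin pathway. The brighter mbl2 probe had relative signals of 0.150, 0.150 and 0.191 in control MO replicates 1 to 3 and of 0.0872 and 0.107 in gata5/6 MO replicates 1 and 2. Both gata5/6 values were below all controls, and the range within the controls, 0.35 on the log2 scale, and the difference of the gata5/6 arrays, 0.29, were both smaller than the gap of 0.49 between the groups. The log2 change was -0.75 (limma, SE 0.153, 95% interval -1.13 to -0.38, adjusted p = 0.0270). The dimmer probe read 0.0783, 0.0743 and 0.0857 in control MO and 0.0457 and 0.0693 after gata5/6 MO, a log2 change of -0.49 that did not pass over probes (adjusted p = 0.155). The mbl2 call passed under 7 of 15 alternative settings. It was lost without control MO replicate 1 (log2 change -0.81, adjusted p = 0.0623), replicate 2 (-0.81, 0.0757) or replicate 3 (-0.64, 0.0780) and without gata5/6 MO replicate 1 (-0.61, 0.0819). It was also lost with the mean over both probes (-0.62, adjusted p = 0.0563), with no filter on dim probes (0.0536) and with 1 variance per group (0.228). The direction was lower under all 15 settings.

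**Figure D2:**
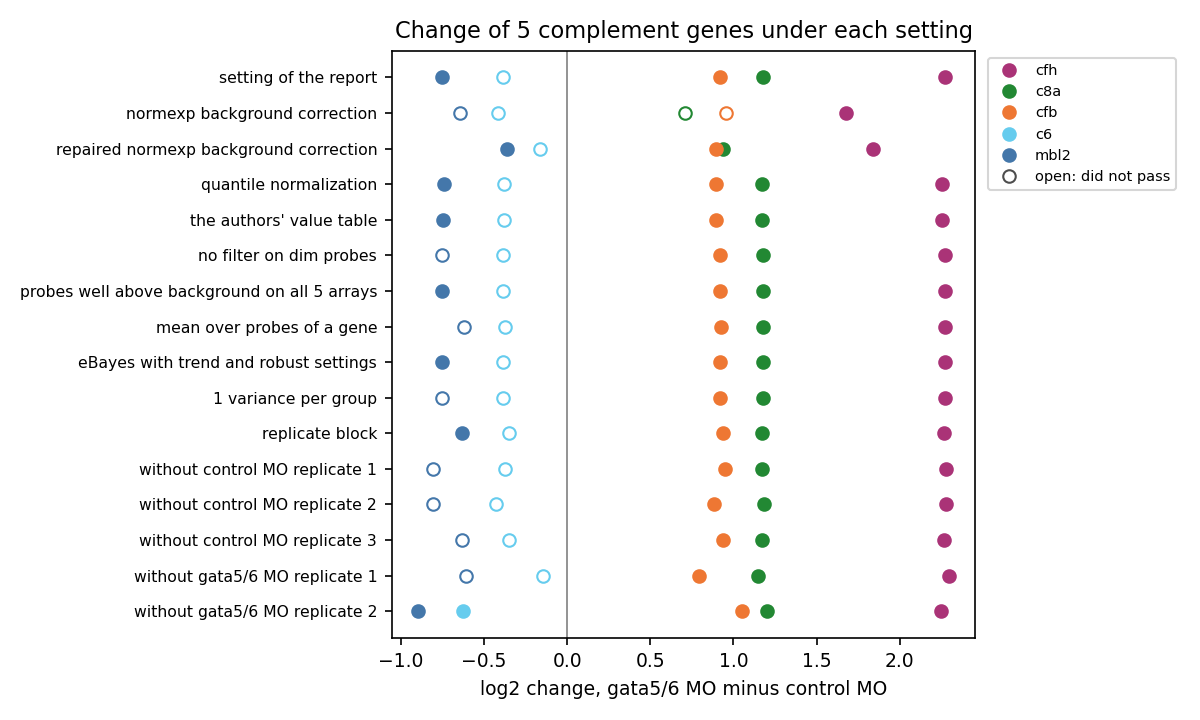
Log2 change of the 5 complement genes tested (x axis) under the setting of the report and 15 alternatives (y axis), with filled symbols where the adjusted p was under 0.05 and open symbols where it was not. The cfh symbols are filled throughout, from 1.67 to 2.30, the c8a and cfb symbols are open only with the default normexp background correction, and the mbl2 symbols are open under 8 of the 15 alternatives.

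The wider pathway was described by a further 53 complement genes, of which 24 had a probe and 17 were tested. Of these 17, 7 rose, none fell and 10 did not pass, against 15.0% of all genes passing. That none fell depended on the processing and on the arrays used. Without control MO replicate 1, 5 of 18 genes tested were higher and 1 lower. With quantile normalization, and with the authors' value table, 6 of the 17 were higher and 1 lower, and with no filter on dim probes 6 of 24 were higher and 1 lower. In the setting of the report, the median log2 change of the 17 genes was 0.47, and 15 of the values were above 0. These include c3b.1, which was dim on all 3 control arrays and was tested only because it was brighter after gata5/6 MO. The gene colec11, well above background on 2 of 3 control arrays and on no gata5/6 array, was not tested. The filter thus affects the count of positive values. With probes well above background on all 5 arrays, 16 genes were tested and the median was 0.44. Among the further regulators tested, the member cfh aside, 3 of 7 rose, beside 7.84% of all genes tested. The carboxypeptidase gene cpb2, whose product trims fibrin and inactivates C3a and C5a, was 3.58-fold higher (log2 change 1.84, SE 0.171, limma adjusted p = 0.00167). The factor H-like gene cfhl2 was 3.56-fold higher (1.83, SE 0.115, adjusted p = 0.000456), while its relative cfhl1 did not pass (0.10, adjusted p = 0.725). Both sizes were smaller with a repaired normexp background correction, chosen after seeing the data, at 1.15 for cpb2 and 0.78 for cfhl2, and both genes still passed. Normexp was run here with an offset of 50 intensity units added to each spot, which shrinks the log2 changes of dim probes. The gene of the C1 inhibitor, serping1, which blocks C1r, C1s and the MASP proteases, was 2.13-fold higher (1.09, SE 0.0850, adjusted p = 0.000962), and its other probe gave 1.19. The serping1 relative signals were 0.650, 0.595 and 0.619 in control MO replicates 1 to 3 and 1.33 and 1.32 in gata5/6 MO replicates 1 and 2. The remaining regulators tested, clu, cpn1 and rca2.1, had log2 changes of 0.06 to 0.15 and did not pass.

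Among the further C3 family and alternative pathway genes, the member cfb aside, 3 of 7 rose, beside 7.84% of all genes tested. C3 is the protein on which all routes of complement meet, and zebrafish carry several C3 genes that resemble each other, so their probes may share signal. The gene c3a.6 was 2.82-fold higher (log2 change 1.50, SE 0.111, limma adjusted p = 0.000827), with relative signals of 0.230, 0.277 and 0.242 in control MO and 0.678 and 0.728 after gata5/6 MO. The gene c3b.2 was 2.51-fold higher (1.33, SE 0.162, adjusted p = 0.00456), and its 3 other probes gave 0.32 to 1.73. The probes of c3a.3 disagreed: the brightest rose by the test (0.41, adjusted p = 0.0478), another gave -0.86, and the mean over both was -0.22. The c3a.3 call passed under 3 of 15 alternatives and was lost without any 1 of the 5 arrays (0.35 to 0.47, adjusted p = 0.0540 to 0.187). The other 4 genes did not pass. The gene c3b.1 was dim on all 3 control arrays (at least 2.13-fold higher, adjusted p = 0.0835), c3a.2 had a log2 change of 0.38 (adjusted p = 0.0638), the properdin gene cfp of -0.42 (0.0612) and the factor D gene cfd of 0.75 (0.138). Factor D cuts factor B, and cfd read 9.01 in gata5/6 MO replicate 1 but 4.69 in replicate 2, close to the 4.60 of control MO replicate 1. Its log2 change was 1.23 without gata5/6 MO replicate 2 and 0.28 without replicate 1.

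Of the further genes that start the lectin and classical pathways, the member mbl2 aside, 8 had a probe, 2 were tested and none passed. The lectin gene hbl4, a relative of mbl2, had a log2 change of 0.50 (SE 0.152, limma adjusted p = 0.0855) and the MASP protease gene masp2 of -0.46 (SE 0.173, adjusted p = 0.132). Without gata5/6 MO replicate 2 hbl4 was at 0.73, while without replicate 1 it was at 0.26. The reverse held for masp2, whose change was larger without gata5/6 MO replicate 1 (-0.73) than without replicate 2 (-0.19). The gene c1qbp, whose product binds C1q but resides mainly in mitochondria, was 1.38-fold higher (0.47, SE 0.0953, adjusted p = 0.0270). That call was lost without any of the 3 control arrays (0.44 to 0.53, adjusted p = 0.0575 to 0.132), without gata5/6 MO replicate 1 (0.45, 0.0505) and with 1 variance per group (0.214). Without gata5/6 MO replicate 2, the filter let 20 of the other complement genes be tested, with a median log2 change of 0.82. The median over all genes in that setting was 0.08.

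**Figure D3:**
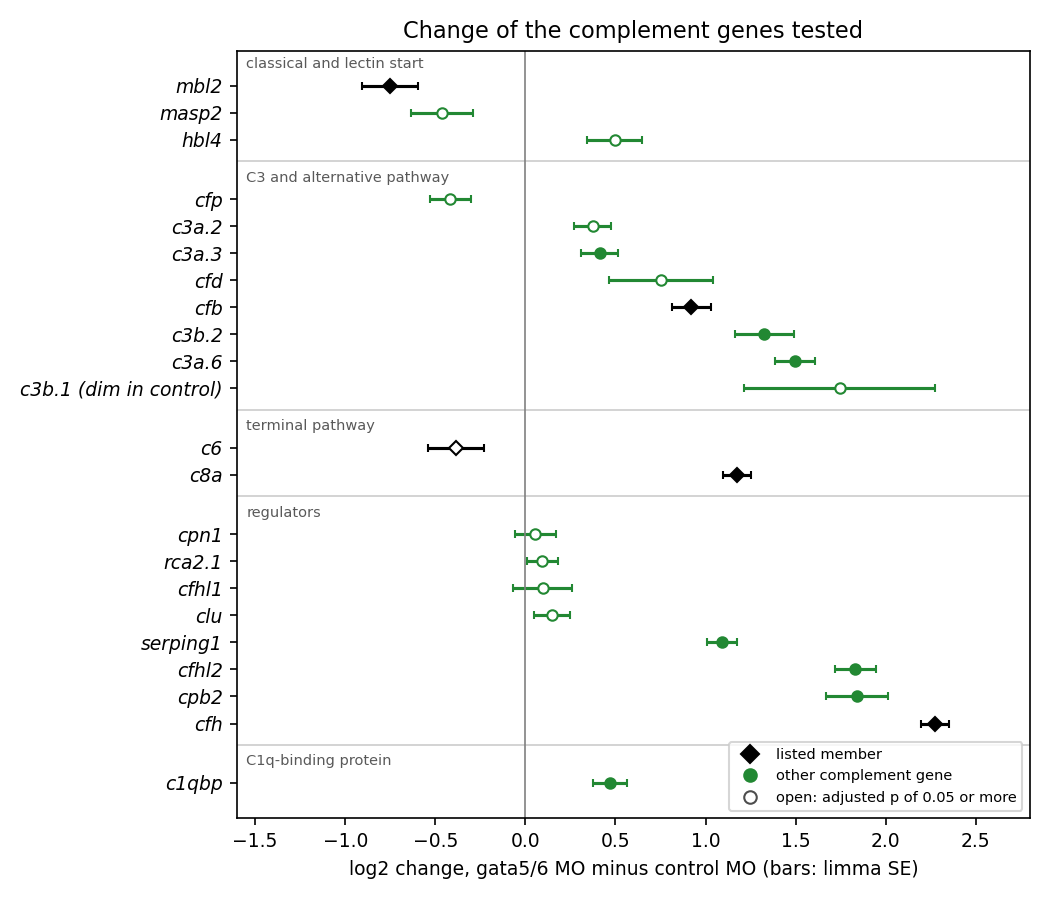
Log2 change with its limma standard error (x axis) of the 22 complement genes tested (y axis), grouped by role, with diamonds for the listed members and circles for the other complement genes, filled where the adjusted p was under 0.05. The filled symbols to the right include cfh at 2.27, cpb2 at 1.84, cfhl2 at 1.83 and c3a.6 at 1.50, and the only filled symbol to the left is mbl2 at -0.75.

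Complement proteins share their plasma and their main adult source with many clotting factors and carrier proteins. The same values are given for lists of coagulation genes, fibrinogen and vitronectin genes, and carrier genes. All rest on the same 5 arrays, so the lists are not independent of each other. Over all genes tested, 7.84% were higher and 7.17% lower. Of the 13 coagulation genes tested, 9 rose and 1 fell, with a median log2 change of 0.90. The gene that fell was the tissue factor gene f3a (-0.37, limma adjusted p = 0.0467). The 9 that rose include f9b and proca, which were dim on all 3 control arrays and were tested only because they were brighter after gata5/6 MO (at least 1.84-fold and 1.75-fold higher). With both at their bounds the median was 0.81. The coagulation genes with the smallest adjusted p were f7 at 3.77, f7i at 2.70 and f9a at 2.89. That f9a probe was well above background on 2 of 3 control arrays, so it was kept only through the gata5/6 arrays. With probes well above background on all 5 arrays, another f9a probe gave 2.79. The probes of serpind1 disagreed: the brightest was at -0.06 and did not pass, while its 3 other probes gave 1.80 to 2.06. All 5 fibrinogen and vitronectin genes rose, with a median of 2.92 and with vtnb at 3.26, fga at 3.37 and fgb at 2.92. Of the 14 carrier genes tested, 8 rose and 2 fell, with a median of 0.56. Those with the smallest adjusted p were leg1.1 at 4.26, leg1.2 at 4.18 and ahsg1 at 4.12. The 2 that fell were apoa1a (-0.97, limma adjusted p = 0.00137) and apobb.1 (-0.42, 0.0280), both bright. The summed relative signal of the 14 genes was 497 to 514 in control MO and 451 to 511 after gata5/6 MO. The ahsg1 value depended on its probe, since the other 2 probes gave 2.84 and 3.25. Without gata5/6 MO replicate 1 or 2 another probe became the brightest, and the values were 2.76 and 2.91. With the repaired normexp correction and its offset of 50 units, f7 was at 1.81, f7i at 1.35 and f9a, through another probe, at 1.19. In that setting leg1.1 was at 2.77, leg1.2 at 3.24, ahsg1 at 2.28 and vtnb at 2.50, and all 7 genes still passed. With the default normexp correction none of these 7 genes passed (limma adjusted p = 0.0644 to 0.834). In that setting fga (adjusted p = 0.0254) and fgb (0.0126) did pass. The rise of cfh was thus within the range of these lists, and no difference between the lists was tested.

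**Figure D4:**
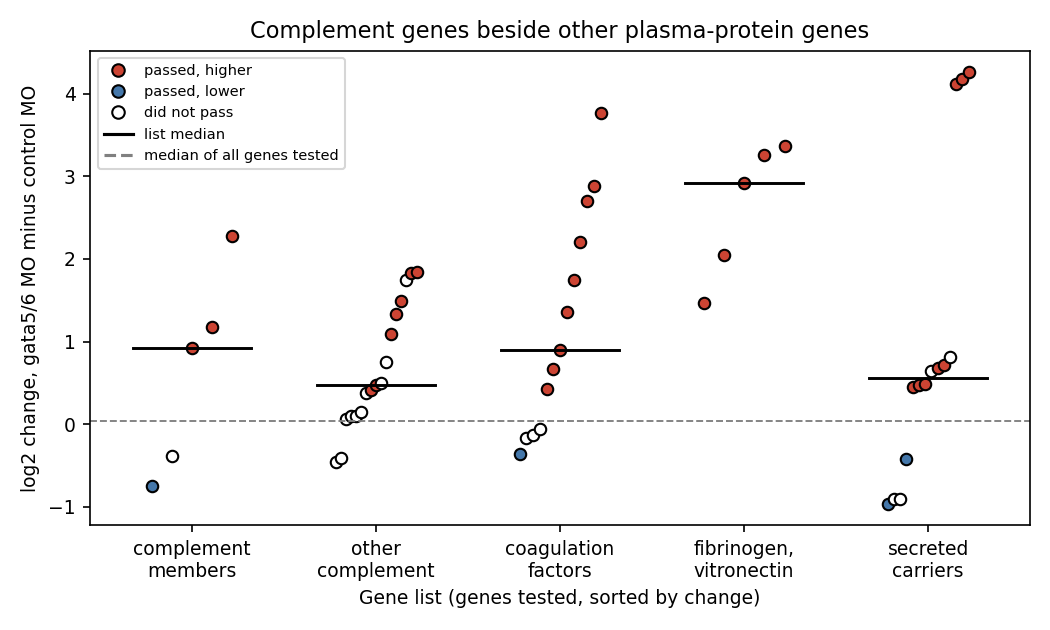
Log2 change of each gene tested (y axis) in the 5 complement genes, the 17 other complement genes and 3 comparison lists (x axis). The 3 lists hold coagulation genes, fibrinogen and vitronectin genes, and carrier genes. Symbols are red where the gene rose, blue where it fell and white where it did not pass. Black bars are list medians (0.92, 0.47, 0.90, 2.92 and 0.56 from left to right), all above the dashed median of all genes, 0.04.

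The genes whose profile over the 5 arrays was most like that of cfh, by the root mean square difference of log2 signals centred on the control mean, were ugt5e1 (0.0597), cdh17 (0.0885) and grk7a (0.0903). Their log2 changes were 2.35, 2.34 and 2.28, beside 2.27 for cfh. The likeness depended on the background correction and its offset, since with repaired normexp they were 1.08, 2.18 and 0.87, beside 1.84 for cfh. This likeness mainly restates the size of the group difference, since the control arrays hardly varied.

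Genes listed as markers of tissues were read on the same arrays. Whether the embryos held hepatocytes at this stage, and whether the genes listed for them mark them then, was not tested. Of all genes tested, 7.84% were higher and 7.17% lower. Of the genes listed as hepatocyte markers, 4 were tested, 2 rose (fabp10a and hhex) and 1 fell (prox1a). Their summed relative signal was 4.19 to 4.29 in control MO and 6.02 to 6.22 after gata5/6 MO. Nearly all of that sum came from the bright hhex probe (4.03 to 4.12 and 5.85 to 6.04). The fabp10a probe was close to the level of detection, with log2 signals of -5.32 to -5.19 in control MO. The lowest signals well above background on these arrays were -5.70 to -5.54. Of the yolk syncytial layer markers, 5 were tested, 3 rose (mxtx1, hnf4a and the targeted gata5) and 2 fell (slc40a1 and apobb.1), with sums of 124.1 to 128.5 and 125.9 to 141.4. Here apobb.1 and gata5 made up nearly all of the sum, so neither sum measures an amount of tissue. The layer's factor gene mxtx2 was well above background on 1 control array alone. Of the 8 myeloid and macrophage markers, 4 were tested and 1 fell (spi1b), with sums of 6.33 to 8.43 and 3.83 to 4.88. Most of that sum came from lcp1 (5.03 to 7.26 in control MO, 2.99 and 4.32 after gata5/6 MO). The lcp1 change did not pass (limma adjusted p = 0.106), so this sum does not measure an amount of tissue either. The log2 change of mfap4 was 0.63 (limma adjusted p = 0.196), but another of its probes gave -1.25. That of coro1a was -0.22 (0.257), and neither gene passed. The defining macrophage and granulocyte genes mpeg1.1, csf1ra and lyz were not well above background on any array, and mpx was so on 1 control array. The part of these tissues in the complement values was not tested. Of the 16 markers of somite muscle, neural plate, epidermis and notochord, 15 were tested, as the label of whole embryos would have it, and among these 15 only tp63 passed, with a log2 change of -0.47 (limma adjusted p = 0.0491). Of the 3 primitive red cell markers tested, the globin gene hbae1.1 rose (0.61, adjusted p = 0.0118), and gata1a (0.21, 0.232) and alas2 (-0.09, 0.748) did not pass.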

How the data were processed

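Total RNA of 5 samples was hybridised to 1-colour (Cy3) Agilent arrays. The scanner images were quantified in Agilent Feature Extraction, version 10.7.3.1 per the file headers and 10.7.1.1 by the submitters' processing notes. The deposited processed intensity is, per the file headers, background-subtracted and detrended within the array, and it is not scaled between arrays. The authors' deposited value table holds log2 values that share 1 distribution (largest difference at equal rank 0.000844), are not centred and have a median of 6.09 on each array. The authors' method for that table is not stated in the sources used. The deposited marks for well above background, saturation and outlier spots (other values of the files) were used as filters, and no spot was saturated.

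Non-control spots (43803, of 43603 probes) were divided by the array's 75th percentile (506 to 574 intensity units), spots of a probe were averaged as log2, and 52 probes with an outlier spot were left out. Kept were 30616 probes that all arrays of 1 group or of both marked as well above background. A symbol from the RefSeq table of GRCz12tu, matched by accession without version, was found for 58.7% of probes, and no coordinates are given since the array was designed on another build. The brightest kept probe stood for a gene. The test was limma 3.58.1 in R 4.3.3 (lmFit, eBayes, 3 residual degrees of freedom). It was also run on simulated data in which both groups had the same spread. The spread differed between the groups here, so that run does not show how well the test holds for these arrays. The number of arrays limits the precision. "At least" folds set the brighter group's mean against the higher of the dim probe's signal and the lowest signal well above background.

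The members and all lists were chosen with earlier results of these data known. Named were the members, the targeted genes, the other complement genes that passed with the 4 largest changes that did not, and the 3 smallest adjusted p of each comparison list. Also named were the 3 genes most like the member with the smallest adjusted p. Further genes were chosen after their values were seen. Alternatives were 2 normexp background corrections with an offset of 50 units, quantile normalization, the authors' table, 2 filters and the mean over probes. Further ones were 2 variance models, the replicate number as a block, and leaving out each array. Promoter and protein sequences were not used here.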

Additional observations from a re-analysis of the deposited data

How the results depend on the processing

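The direction of all 5 complement genes tested held under all 15 alternatives, and the same 3 genes, cfh, c8a and cfb, passed under 14 of them. The exception was the default normexp background correction, where only cfh passed (log2 change 1.67, adjusted p = 0.0469), with c8a at 0.71 (adjusted p = 0.709) and cfb at 0.96 (0.144). With that correction 42 of all genes, 1 member, 0 member probes and 0 of the other complement genes passed by limma, and the medians were 0.71 for the members and 0.27 for the others. It takes 4 spots with a local background above 200 units on control MO replicate 3 into its fit. With these set to the array's median, an alternative chosen after seeing the data, 1553 genes passed, with the same 4 members (cfh 1.84, c8a 0.94, cfb 0.89 and mbl2 -0.36, just inside the threshold), c6 at -0.16, and a median of 0.39 for the other complement genes. With 1 variance per group 547 genes passed. Without a filter the member median was 0.27, since c8g then enters. Leaving out 1 array at a time gave 685 to 5262 genes, 3 to 5 members, 4 to 8 member probes and 5 to 13 other complement genes, with medians of 0.79 to 1.05 for the members and 0.35 to 0.82 for the others. A lone array of a group is there assumed to vary like the other group. Reversed were c3a.3 with the mean over probes (-0.22) and c3b.1 with default normexp (-0.21). The replicate numbers are shared by 2 pairs, whose deviations correlated at 0.12 and 0.20, and the labels give no further pairing. With the replicate block 1787 genes passed, including the same 4 members (mbl2 -0.64, adjusted p = 0.00445), on 1 residual degree of freedom. There c3b.1 (adjusted p = 5.77e-16), cfd (0.00119) and hbl4 (0.0250) passed and c1qbp (0.0719) and c3a.3 (0.0856) did not. The SE in that fit was nearly the same for each of these genes, 0.174 to 0.178, while that of c3b.1 was 0.530 in the setting of the report. The p-values of the block therefore hardly reflect the spread of a single gene. Signal over background limits c8g and the third c6 probe.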

Other observations

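Of the other complement genes with a probe, 7 were too dim to be tested, and they were named after their values were seen. The 3 chain genes of C1q, c1qa, c1qb and c1qc, which macrophages express, were dim on all 3 control arrays. Of these, c1qa was well above background on gata5/6 MO replicate 1, at a relative signal of 0.0376, against 0.00437 in replicate 2 and 0.00402 to 0.00440 in controls. The C1 protease genes c1r and c1s were also well above background on 1 gata5/6 array and on no control array, with c1r at 0.0553 and 0.00656 in the gata5/6 arrays. The collectin gene colec11 was well above background on 2 of 3 control arrays, at 0.0167 to 0.0272 over the controls, and on neither gata5/6 array, at 0.00533 and 0.00450. The factor H-like gene cfhl3 was well above background on 1 control array.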
